A study of Mus musculus with 8 samples.

Results

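The genes described here encode the fragile X protein FMRP (Fmr1), its paralogues (Fxr1 and Fxr2), the FMRP partners Cyfip1 and Cyfip2, and 5 RNA-binding proteins of neuronal RNA granules (Caprin1, Igf2bp1, Igf2bp3, Stau1 and Pum2). They were taken by name, 10 of the 21874 genes with a protein-coding transcript in the table. The names were chosen with earlier results of these data known, and the transcript used per gene was its most covered one. Footprints (fragments of messenger RNA protected from nuclease by a ribosome) were sequenced from mouse brain at postnatal day 5 in mice of the Taiwanese line for spinal muscular atrophy (SMA), congenic on FVB. The SMN immunoprecipitates (3 libraries) and the IgG immunoprecipitate (1 library) came from phenotypically normal Smn+/-; SMN2tg/0 brains, after RNase I digestion, pelleting of ribosomes and pull-down with anti-SMN antibody or IgG. The RiboLace libraries (2), which hold footprints of ribosomes captured while actively translating, and the polysome libraries (2), which hold footprints of polysomes from a sucrose gradient, came from early symptomatic Smn-/-; SMN2tg/0 brains. Every mouse thus carried the human SMN2 transgene and lacked at least one functional mouse Smn copy. Replicates are labelled biological, and there is 1 IgG library and no polysome or RiboLace library of the Smn+/- genotype among those analysed here.

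FMRP binds messenger RNAs in neurons and holds back their translation, and in humans loss of the gene causes the fragile X syndrome. Fxr1 and Fxr2 encode proteins of the same RNA-binding family. CYFIP1 and CYFIP2 bind FMRP and also sit in the WAVE complex, which drives branched actin assembly downstream of Rac1, so that they join control of translation to control of the cytoskeleton. Staufen (Stau1), Pumilio (Pum2), the IMP proteins (Igf2bp1, Igf2bp3) and Caprin1 bind messenger RNAs in transport or stress granules. SMN itself assembles small nuclear ribonucleoproteins and is found on ribosomes.

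Depth set what could be seen. Reads assigned to coding genes numbered 247677 to 589399 in the SMN libraries, 514255 in the IgG library, 86239 and 101211 in the RiboLace libraries, and 3347722 and 4668657 in the polysome libraries. A count of 0 allows up to 3 reads, which is 5.09 to 12.1 CPM (reads scaled to 1000000 reads on coding genes) in the SMN libraries, 29.6 and 34.8 CPM in the RiboLace libraries, and under 1 CPM in the polysome libraries. SMN replicate 2 stood apart from the other immunoprecipitates: its chi-square per gene was 5.22 and 5.45 against SMN replicates 1 and 3, while those 2 differed from each other by 3.00 and SMN replicate 3 differed from IgG by 2.84. The libraries held brain RNA: 8 of 8 neuronal markers had reads in every library, and their summed level was 5273 to 6731 CPM in the SMN libraries, 6250 CPM in IgG, 8442 and 9149 CPM in RiboLace and 5626 and 5954 CPM in polysomes. The 6 markers of liver, muscle, kidney and pancreas together, with 1 to 5 of them at 0 reads in each library, made 68.6 to 76.1 CPM in the SMN libraries, 75.8 CPM in IgG, 139 and 158 CPM in RiboLace and 62.3 and 65.1 CPM in polysomes.

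The table counts reads per transcript, and the isoforms of one gene partly hold the same reads. Coding isoforms of equal coding length had nearly equal counts in SMN replicates 1 and 3 and in IgG, with a median chi-square per isoform pair of 0.129, 0.168 and 0.151, against 0.455 for independent counts. SMN replicate 2 (0.429) and the polysome libraries (0.713 and 0.758) did not show this closeness, and the RiboLace libraries lay between (0.303 and 0.200). In the genes studied, Cyfip2 illustrates it: its 3 isoforms of 3762 coding bases had 66, 66 and 63 reads in SMN replicate 1 and 103, 101 and 110 in IgG, but 25, 45 and 32 in SMN replicate 2. Against polysomes, the level of a gene also moved with its number of listed transcripts in 3 of the 4 immunoprecipitates and in RiboLace; whether shared reads account for this was not tested. Summed per gene, genes with 1 transcript had a median log2 ratio to polysomes of -1.21 and -1.10 in SMN replicates 1 and 3 and -1.17 in IgG, and genes with 8 or more had 0.19, 0.22 and 0.25. In the RiboLace libraries the medians were -0.64 and -0.87 for genes with 1 transcript and -0.12 and -0.04 for genes with 8 or more. In SMN replicate 2 the same medians were -0.18 and -0.24. Of the 10 genes, 6 have 8 or more listed transcripts (Fmr1, Fxr1, Cyfip1, Caprin1, Stau1 and Pum2, with 9 to 16) and 4 have 1 to 6. Fold changes below were therefore tested on the most covered coding transcript of a gene and on reads summed over all its transcripts. Where a read is counted for several isoforms, the SE and adjusted p of summed reads may be too small. Densities, CPM per library, shares of paralogues and correlations use summed reads alone.

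In the SMN, IgG and polysome libraries the most abundant of the 10 by footprint density were Cyfip2, Caprin1 and Stau1, in RiboLace they were Caprin1, Stau1 and Fxr1, and the IMP genes were the scarcest in all groups. Density is given as CPM per kb of coding length, from reads summed per gene, as mean ± SD. The order depends on that choice. Counting only reads on the most covered transcripts, Fxr2 had 145 and 135 CPM in polysomes and Stau1 51.8 and 54.0 CPM. With 2025 and 1470 coding bases, Fxr2 was thus the denser, while summed reads put Stau1 above it. The order given here holds for summed reads only. In the SMN libraries (n = 3) the order began with Cyfip2 at 170 ± 30.3, Caprin1 at 157 ± 2.77 and Stau1 at 130 ± 47.4. These 3 do not differ from their neighbours beyond the spread of the libraries. They were followed by Fxr1 at 70.7 ± 21.2, Cyfip1 at 61.3 ± 7.43, Pum2 at 55.1 ± 23.9, Fmr1 at 39.2 ± 21.3 and Fxr2 at 35.6 ± 5.55, again with overlapping spreads between neighbours. The IgG library kept Cyfip2 (206) and Stau1 (188) at the top, then Caprin1 (137), Fmr1 (82.1), Cyfip1 (72.4), Fxr1 (68.4), Fxr2 (47.1) and Pum2 (38.9).

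In the SMA fractions Caprin1 led. The RiboLace libraries (n = 2) held Caprin1 at 199 ± 11.8 and Stau1 at 197 ± 11.9, whose spreads overlap, then Fxr1 at 141 ± 53.2, Cyfip2 at 102 ± 25.6, Fmr1 at 66.4 ± 47.7, Pum2 at 50.9 ± 15.2, Fxr2 at 34.3 ± 0.144 and Cyfip1 at 34.1 ± 25.9. The polysome libraries (n = 2) held Caprin1 at 261 ± 10.3, clear of Cyfip2 at 120 ± 3.59 and Stau1 at 115 ± 3.85, which do not differ from each other beyond their spread. Below them, Fxr1 at 65.6 ± 4.64 and Fmr1 at 59.6 ± 6.07 overlap, as do Fxr2 at 50.7 ± 2.83 and Pum2 at 49.2 ± 4.79. Cyfip1 stood lowest of these 8 in polysomes at 29.6 ± 3.85. In polysomes Caprin1 was denser than 96.9% of all coding genes, those without a read included, and Cyfip1 than 71.9%.

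**Figure D1:**
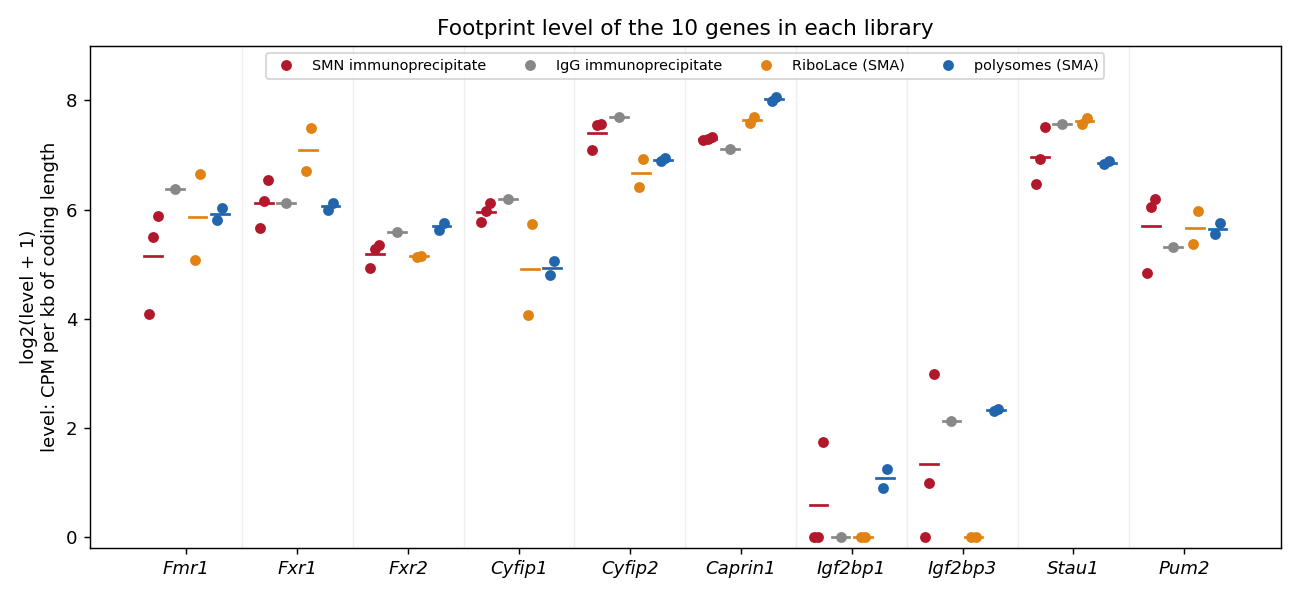
Footprint level of each gene in each library, as log2 of 1 plus the CPM per kb of coding length (y axis), grouped by gene (x axis); points are libraries and short lines are group means of the plotted values. Caprin1 is highest in polysomes, Cyfip1 and Cyfip2 are higher in the SMN and IgG immunoprecipitates than in polysomes, and Igf2bp1 and Igf2bp3 are the lowest genes in every group.

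Together the 10 genes held 2126, 1466 and 1907 CPM in the SMN libraries, 2098 CPM in IgG, 1601 and 2006 CPM in RiboLace, and 1739 and 1795 CPM in polysomes. The ranges of the SMN, RiboLace and polysome libraries overlapped, and the IgG value lay among the SMN values. Footprint counts mix the amount of a message with the ribosomes on it, total RNA was not used here, and in whole brain fewer cells of a type and less RNA per cell cannot be told apart.

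The first comparison, SMN against IgG immunoprecipitates, asks which footprints are pulled down with SMN above unspecific binding. None of the 10 genes was called, in a design with 1 IgG library. Of the 10, 5 lay below IgG and 1 above it in all 3 SMN libraries. How many of all genes do so was not counted, so this is not read as a result about the 10. With the most covered transcript, 7 of the 10 passed the filter on low counts and 0 were called by edgeR's quasi-likelihood test (adjusted p under 0.05), where 0.0181% of the 5517 genes tested were called. With reads summed per gene, 8 passed and 0 were called, as were 0% of 9048 genes. At an unadjusted p under 0.05 the same tests had 99 genes higher and 49 lower for 1 transcript per gene, and 178 higher and 129 lower for summed reads. With a single IgG library, its spread was taken to equal that of the SMN libraries.

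Fmr1, the FMRP gene, had 102, 28.3 and 78.0 CPM in the SMN libraries, against 146 CPM in IgG. All 3 SMN values lie below the IgG value, with SMN replicate 2 the lowest on 7 reads. The log2 fold change of summed reads was -1.04 ± 0.56 (SE), with an edgeR adjusted p of 0.999, and the transcript used had too few reads to be tested. Fxr2 had 76.1, 80.8 and 59.4 CPM in the SMN libraries, against 95.3 CPM in IgG. Fxr1 had 149, 80.8 and 114 CPM in the SMN libraries, which spread around the 111 CPM of IgG.

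Stau1, which encodes the double-stranded RNA-binding protein Staufen, had 266, 129 and 176 CPM in the SMN libraries, against 276 CPM in IgG. Cyfip1 and Cyfip2 also lay below IgG in 3 of 3 SMN libraries, at 202 to 258 CPM against 272 CPM and at 509 to 714 CPM against 776 CPM. Caprin1, a partner of the stress granule protein G3BP1, was the one gene above IgG in every SMN library, with 328, 331 and 339 CPM in the SMN libraries against 292 CPM in IgG. Its log2 fold change was 0.37 ± 0.53 (SE) for the transcript used and 0.16 ± 0.51 for summed reads, with edgeR adjusted p of 0.999 for both. Pum2 had 231, 88.8 and 209 CPM in the SMN libraries against 124 CPM in IgG, so that SMN replicate 2 fell on the other side of IgG from its fellows.

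The medians of the tested genes were -0.36 (7 genes, 1 with a positive log2 fold change) and -0.28 (8 genes, 3 positive, reads summed), beside 0.03 and 0.06 for all genes tested. Genes with 8 or more transcripts had a median of -0.18 in the 1-transcript fit. The 3 gene lists chosen around the 10 genes gave 0 calls in this comparison. In the list of the WAVE complex and Rac1, Nckap1 (a scaffold subunit, log2 fold change -0.75, edgeR adjusted p 0.999) and Rac1 (-0.48, 0.999) had the smallest p of 5 tested. Among other RNA granule and local translation regulators, these were Tnrc6a (-0.79) and Stau2 (-0.82) of 19 tested, and among messages bound by FMRP, Grin2b (-0.82) and Shank2 (-0.97) of 26 tested, all with an edgeR adjusted p of 0.999. The 7 markers of the oligodendrocyte lineage, none at 0 reads, summed to 636 to 1135 CPM in the SMN libraries against 410 CPM in IgG, with 0 of 6 tested called, and their part in the values above was not tested.

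The second comparison sets RiboLace against polysomes, both from SMA brain, and asks how the captured active ribosomes differ from those of the polysome pool. Fxr1 and Stau1 had more footprints in RiboLace when reads were summed per gene. With the most covered transcript, 9 genes were tested and 0 were called, where 2.24% of 10807 genes were called (1.31% higher and 0.925% lower). With summed reads, 9 were tested and 2 were called, both higher, where 2.56% of 12320 genes were called (2.05% higher and 0.519% lower).

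Fxr1 had 168 and 290 CPM in RiboLace (17 and 25 reads), against 101 and 112 CPM in polysomes (338 and 521 reads). Both RiboLace values lie above both polysome values, and they differ from each other by more than the polysome libraries do. For summed reads the log2 fold change was 1.17 ± 0.30 (SE), with an edgeR adjusted p of 0.0074. The 17 and 25 summed reads may stand for fewer footprints, since isoforms can hold the same read. The call rested on RiboLace replicate 2: without it the log2 fold change was 0.75 and the edgeR adjusted p 0.295, and without RiboLace replicate 1 they were 1.53 and 9.4e-04. It was also lost without polysome replicate 1 (edgeR adjusted p 0.998) or 2 (0.928). The transcript used, on 2 and 5 RiboLace reads, gave 1.12 ± 0.68 with an edgeR adjusted p of 0.436.

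Stau1 had 277 and 301 CPM in RiboLace (28 and 26 reads), against 165 and 173 CPM in polysomes (554 and 810 reads). The groups do not overlap, and the RiboLace libraries lie close together. The log2 fold change of summed reads was 0.87 ± 0.27 (SE), with an edgeR adjusted p of 0.0494, just inside the threshold, and the transcript used gave 1.34 ± 0.52 with 0.165. Leaving out any of the 4 libraries ended the call of summed reads, with edgeR adjusted p of 0.0744 and 0.121 without RiboLace replicate 1 or 2 and 0.998 and 0.999 without polysome replicate 1 or 2. Among summed genes with 8 or more transcripts, to which both belong, the median log2 fold change was 0.06 and 3.94% were called in either direction. Fxr1 lay 1.11 and Stau1 0.80 above that median.

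The other genes were not called in either form. Fmr1 had 178 and 58.0 CPM in RiboLace, on 18 and 5 reads, against 98.3 and 114 CPM in polysomes, so that its RiboLace libraries fell on either side of the polysomes. Cyfip1 showed the same with 59.3 and 197 CPM in RiboLace against 101 and 121 CPM in polysomes, in the opposite order of replicates. Cyfip2 had 316 and 452 CPM in RiboLace against 441 and 460 CPM in polysomes. Pum2, a repressor that binds Pumilio elements, had 128 and 197 CPM in RiboLace against 147 and 168 CPM in polysomes.

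Caprin1 had 405 and 441 CPM in RiboLace, against 570 and 539 CPM in polysomes. Both values lie below the polysomes, but the log2 fold change of summed reads, -0.29 ± 0.22 (SE), was close to the median of all genes (-0.26) and was not called (edgeR adjusted p 0.509). Fxr2 had 69.2 and 69.6 CPM in RiboLace, on 7 and 6 reads, against 107 and 98.5 CPM in polysomes, with a log2 fold change of -0.46 ± 0.44 (edgeR adjusted p 0.630). Igf2bp1 and Igf2bp3, fetal regulators of messenger RNA stability and transport, had 0 reads in both RiboLace libraries. Their polysome levels, at most 2.39 CPM for Igf2bp1 and 6.87 and 7.07 CPM for Igf2bp3, lie below the 29.6 and 34.8 CPM that a count of 0 allows in RiboLace, so this depth could show no difference.

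In the lists, Tsc2, a brake on mTOR signalling, fell in RiboLace among 27 FMRP target messages tested, with 39.5 and 23.2 CPM in RiboLace (4 and 2 reads) against 120 and 117 CPM in polysomes. Its log2 fold change was -1.84 ± 0.48 (SE; edgeR adjusted p 0.0106) for the transcript used and -1.78 ± 0.55 (0.0476) for summed reads. No other of the 28 was called in either form. Among the other granule regulators, 0 of 21 were called for 1 transcript per gene, with Ybx1 (0.59) and Syncrip (0.91) at the smallest p. With summed reads, Syncrip, an RNA-binding protein of granules, was the 1 of 23 called (0.91 ± 0.23, edgeR adjusted p 0.0062), on unlike values of 227 and 673 CPM in RiboLace against 246 and 251 CPM in polysomes. Of the WAVE complex and Rac1, 0 of 8 were called in either form, with Wasf1 (-0.47) and Wasf3 (-0.65) at the smallest p for 1 transcript per gene. Markers of blood rose in this comparison, 4 of 5 called, with a sum of 4130 and 4627 CPM in RiboLace (1 of the 5 at 0 reads in each library) against 1580 and 2163 CPM in polysomes. Of the 8 neuronal markers, whose sums are given above, 3 were called higher for 1 transcript per gene and 4 with summed reads. Their part in the values of Fxr1 and Stau1 was not tested.

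The third comparison sets the SMN immunoprecipitates of Smn+/- brains against the polysomes of Smn-/- brains, so genotype and method cannot be told apart, and it shares libraries with both comparisons above. Cyfip1 and Cyfip2 had more footprints in the SMN immunoprecipitates, and the IgG library was as high as the SMN libraries for both. With the most covered transcript, 7 of the 10 genes were tested and 2 were called, both higher, where 27.5% of 6484 genes were called (16.4% higher and 11.1% lower). With summed reads, 8 were tested and 1 was called, where 9.05% of 9882 genes were called (5.65% higher and 3.4% lower). The share of calls among the 10 genes is thus near that of all genes.

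Cyfip1 had 258, 202 and 232 CPM in the SMN libraries, against 101 and 121 CPM in polysomes. The groups are well apart, and the IgG library (272 CPM) lies above all of them. The log2 fold change was 1.59 ± 0.26 (SE; edgeR adjusted p 7.7e-04) for the transcript used and 1.42 ± 0.28 (0.0260) for summed reads. Cyfip2 had 714, 509 and 697 CPM in the SMN libraries, against 441 and 460 CPM in polysomes, with 776 CPM in IgG. Its log2 fold change was 0.95 ± 0.28 (edgeR adjusted p 0.0207) for the transcript used and 0.88 ± 0.28 (0.0770) for summed reads, the second not past the test.

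Long genes and genes with many isoforms shifted the same way in this comparison. Genes of 3000 to 4499 coding bases, as Cyfip1 and Cyfip2 have (3762 bases each), had a median of 0.38 with 33.1% called in either direction. Genes with 8 or more transcripts had a median of 0.76 with 43.8% called in either direction. Cyfip1, with 10 transcripts, lay 1.21 above the median of its length class and 0.84 above that of its isoform class. Cyfip2, with 5 transcripts, lay 0.57 and 0.76 above the medians of its classes. The part of isoform number and length in the values of Cyfip1 and Cyfip2 was not tested. For the transcript used, both calls were lost without either polysome library (edgeR adjusted p 0.0988 and 0.0783 for Cyfip1 and 0.309 and 0.350 for Cyfip2), and that of Cyfip2 was also lost without SMN replicate 1 (0.103) or 3 (0.132), with library totals (log2 fold change 0.65, edgeR adjusted p 0.0740) and at a minimum count of 50 (0.75, 0.0887). The call of Cyfip1 with summed reads was lost without SMN replicate 1 (edgeR adjusted p 0.0718) or 3 (0.0683) or polysome replicate 1 (0.673) or 2 (0.505). The 7 markers of neural progenitors and the cell cycle summed to 309 to 638 CPM in the SMN libraries against 222 and 249 CPM in polysomes (331 CPM in IgG), with 3 of 4 tested called higher. The 6 microglial markers summed to 87.8 to 250 CPM in the SMN libraries against 275 and 267 CPM in polysomes, with 2 of 4 tested called lower, and the part of neither in the values of Cyfip1 and Cyfip2 was tested.

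**Figure D2:**
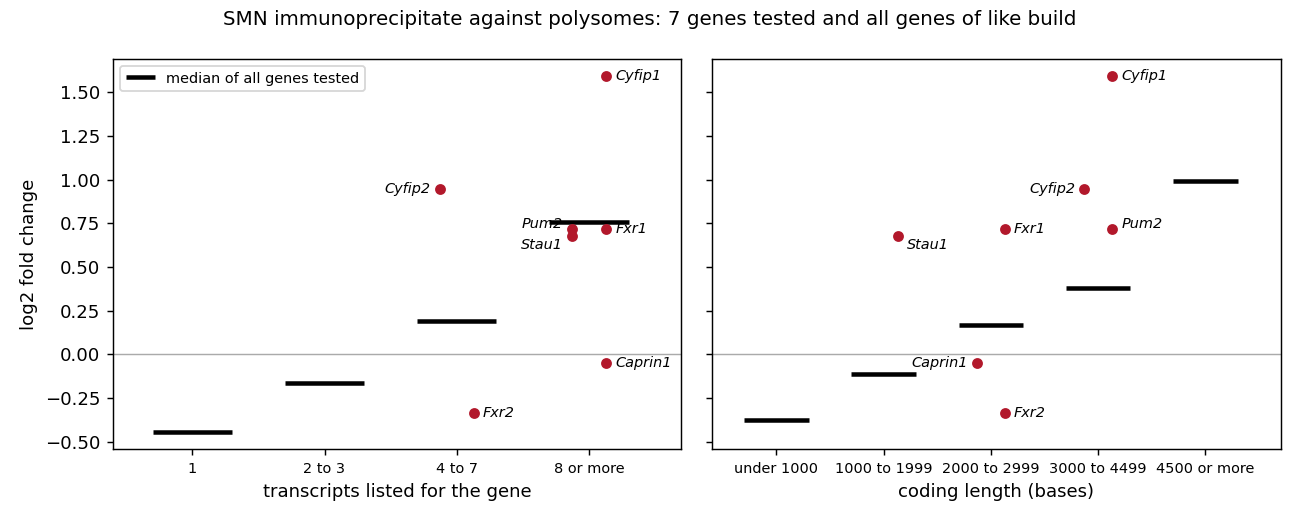
Log2 fold change of SMN immunoprecipitates against polysomes (y axis, 1 transcript per gene) for the 7 genes tested (red points), beside the median of all genes tested (black bars), by number of listed transcripts (left) and longest coding length (right). Cyfip1 lies above the medians of both its classes, while Fxr1, Stau1 and Pum2 lie at the median of genes with 8 or more transcripts.

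Fxr1 (0.72), Stau1 (0.67) and Pum2 (0.72) had positive log2 fold changes that did not pass the test, with edgeR adjusted p of 0.150, 0.0982 and 0.188, and they differed from the median of genes with 8 or more transcripts by -0.04, -0.08 and -0.04. Without SMN replicate 2, Stau1 (0.78, edgeR adjusted p 0.0477) and Pum2 (1.02, 0.0225) were called too for 1 transcript per gene, making 4 genes. Fxr1 (0.71, 0.0227) joined them with summed reads, making 5. The number of all genes called also varied widely when a library was left out. Their share in these same fits is not given here, so the added calls are not read as a result about the studied genes. Fmr1, with 102, 28.3 and 78.0 CPM in the SMN libraries against 98.3 and 114 CPM in polysomes, overlapped and had a log2 fold change of -0.17 ± 0.40 with summed reads. Fxr2 had 59.4 to 80.8 CPM in the SMN libraries, below the 107 and 98.5 CPM of polysomes, and was not called (-0.34 ± 0.25, edgeR adjusted p 0.322, for the transcript used). Caprin1 had 328 to 339 CPM in the SMN libraries, also below polysomes at 570 and 539 CPM. Its transcript used gave -0.05 ± 0.23 and its summed reads -0.38 ± 0.24 (edgeR adjusted p 0.303), the summed form differing by -0.88 from the median of genes with 8 or more transcripts.

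The IMP genes were near the floor in the immunoprecipitates and low in polysomes. Igf2bp3 had 0, 12.1 and 1.70 CPM in the SMN libraries (0, 3 and 1 reads), 5.83 CPM in IgG (3 reads) and 6.87 and 7.07 CPM in polysomes (23 and 33 reads). Igf2bp1 had 1 read in SMN replicate 2 and none in the other immunoprecipitates, against 8 and 7 reads in polysomes. At 4.01 and 1.12 CPM per kb of coding length, Igf2bp3 and Igf2bp1 were denser than 43.8% and 34.6% of coding genes in polysomes. These percentages include genes without a read.

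**Figure D3:**
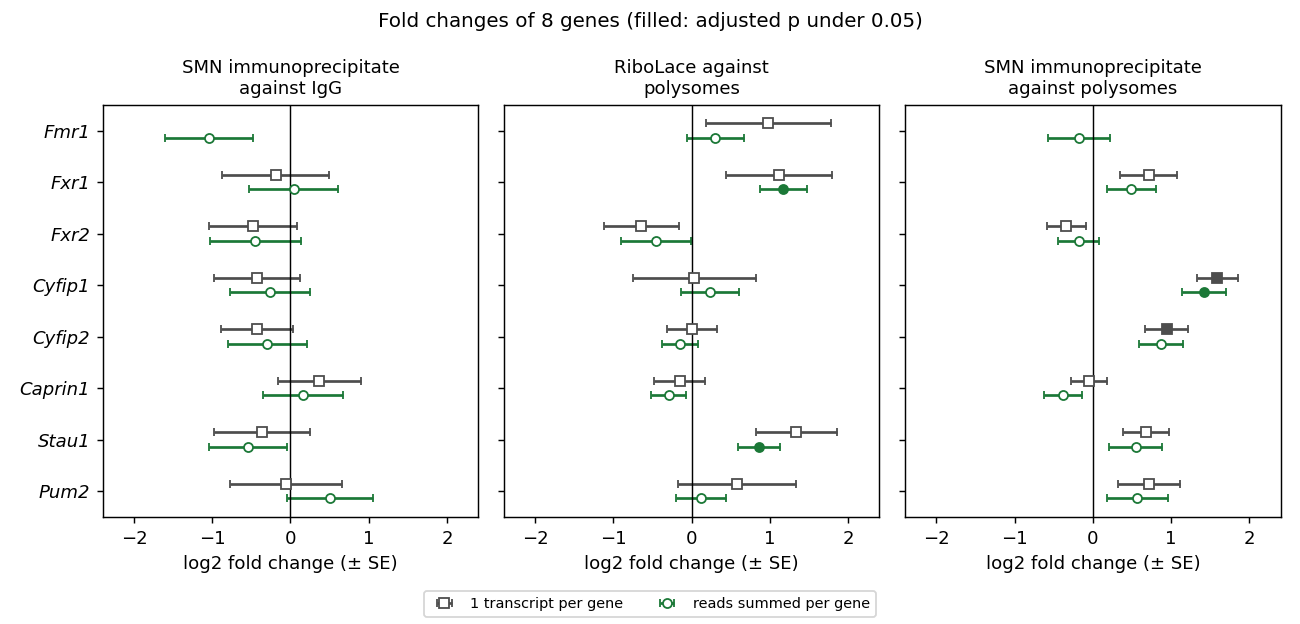
Log2 fold change with its SE (x axis) of the 8 genes other than Igf2bp1 and Igf2bp3, in the 3 comparisons, for the most covered transcript (squares) and for reads summed per gene (circles); filled symbols have an edgeR adjusted p under 0.05. Filled symbols appear for Fxr1 and Stau1 in RiboLace against polysomes and for Cyfip1 and Cyfip2 in the SMN immunoprecipitates against polysomes, and nowhere against IgG.

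The division of reads between paralogues compares genes within a library and does not depend on its total. Shares were taken from reads summed per gene, with exact Clopper-Pearson 95% intervals that cover counting error alone and are too narrow where a read is counted for several isoforms. Cyfip1 made 26.5%, 28.4% and 25.0% of the reads of the Cyfip pair in the SMN libraries, 26.0% in IgG, 15.8% and 30.4% in RiboLace, and 18.6% and 20.9% in polysomes. The immunoprecipitates are alike, and the 3 SMN libraries are above both polysome libraries. Cyfip1 has 10 listed transcripts and Cyfip2 has 5. Over all genes, the median log2 ratios to polysomes for 4 to 7 and for 8 or more transcripts were -0.38 and 0.19 in SMN replicate 1. They were -0.31 and -0.24 in SMN replicate 2 and -0.28 and 0.22 in SMN replicate 3. The part of isoform number in these shares, and in those of the Fmr1 family below, was not tested. The mean difference of SMN against polysomes was 6.89 percentage points (5.76 to 8.02 on leaving out 1 library), with an exact two-sided permutation p of 0.2 over libraries, the smallest that 3 against 2 allows. The SMN interval of replicate 3 (21.4% to 28.8%) overlaps that of polysome replicate 2 (19.4% to 22.5%).

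Within the Fmr1 family, Fxr1 made 45.5%, 42.6% and 45.3% of the reads in the SMN libraries, against 31.5% in IgG and 33.0% and 34.5% in polysomes. In RiboLace it made 40.5% and 69.4%. Fmr1 made 31.3%, 14.9% and 31.1% in the SMN libraries, 41.4% in IgG, 42.9% and 13.9% in RiboLace, and 32.1% and 35.1% in polysomes. The low values of Fmr1 rest on 7 reads in SMN replicate 2 and 5 reads in RiboLace replicate 2. The exact permutation p for SMN against polysomes was 0.2 for both genes, and for Fxr1 in RiboLace against polysomes it was 0.333, each the smallest possible. Fxr2 made 16.7% of the family's reads in both RiboLace libraries against 34.9% and 30.4% in polysomes (exact permutation p 0.333, the smallest possible). These 3 shares add to the whole, so they are not independent of each other.

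**Figure D4:**
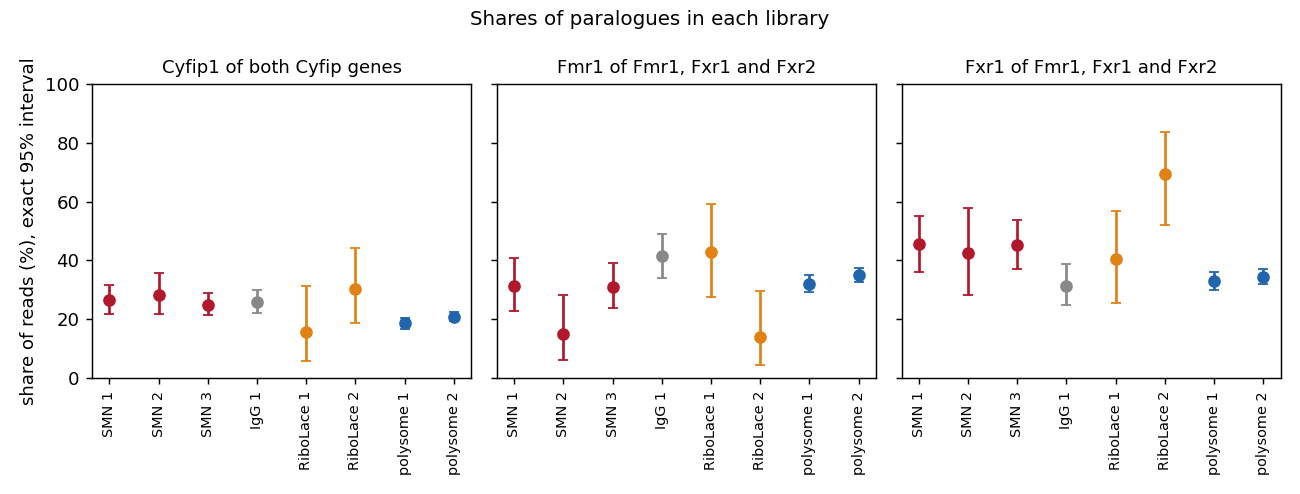
Share of reads in percent (y axis) of Cyfip1 among both Cyfip genes and of Fmr1 and Fxr1 among Fmr1, Fxr1 and Fxr2, in each library (x axis), with exact 95% intervals. Cyfip1's share is 25.0% to 28.4% in the SMN libraries and 18.6% and 20.9% in polysomes, and the RiboLace intervals are wide.

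In the SMN immunoprecipitates against polysomes, the genes related to the 10 by function were described from 3 lists. Of the list of the WAVE complex and Rac1, 0 of 6 tested rose and Brk1, the smallest subunit, fell, with a median of -0.16 beside -0.02 for all genes. Brk1 had 20.5, 24.2 and 8.5 CPM in the SMN libraries, against 57.1 and 54.0 CPM in polysomes, with 21.4 CPM in IgG. Its log2 fold change was -1.40 ± 0.34 (SE; edgeR adjusted p 0.0088) for the transcript used and -1.47 ± 0.37 (0.0431) for summed reads, and genes under 1000 coding bases had a median of -0.38. Of the other granule regulators, 1 of 19 rose and 2 fell. Of all genes, 16.4% were called higher and 11.1% lower, so the counts of both lists are near the background or below it. G3bp2, a stress granule nucleator, rose by 0.84 ± 0.22 (edgeR adjusted p 0.0133) for the transcript used. Its summed reads made 515, 307 and 461 CPM in the SMN libraries and 439 CPM in IgG, against 347 and 333 CPM in polysomes. SMN replicate 2 thus lay below both polysome libraries. Nufip1, which encodes a nuclear FMRP-interacting protein, had a log2 fold change of -2.61 ± 0.63 (0.0084), and Khdrbs3, a splicing regulator, one of -0.93 ± 0.24 (0.0117). With summed reads Nufip1 alone was called (-2.70 ± 0.71, edgeR adjusted p 0.0468). Nufip1 has 1 listed transcript, so both forms use the same counts. It had 1, 3 and 0 reads in the SMN libraries and 3 in IgG, all at the floor, against 105 and 125 in polysomes.

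Of the messages bound by FMRP, 15 of 26 tested were higher in the SMN immunoprecipitates than in polysomes, and their summed level was as high in IgG. The list was set by general knowledge of FMRP targets, with earlier results of these data known, and is rich in long genes. Its counts therefore cannot serve as support for an enrichment of FMRP targets. Its 28 messages together held 25370, 25614 and 27626 CPM in the SMN libraries and 27792 CPM in IgG, against 12173 and 12523 CPM in RiboLace and 11551 and 11264 CPM in polysomes. With the most covered transcript, 0 of the 26 fell, with a median of 0.98 beside -0.02 for all genes, of which 16.4% were called higher. With summed reads 11 of 27 rose, where 5.65% of all genes were called higher. All 11 had 4500 or more coding bases, where 36.9% of all genes were called in either direction with summed reads. Of the 15, 13 had 4500 or more coding bases, a class in which 61.7% of all genes were called in either direction. The median of that class was 0.99, against 1.44 for the 15 list members tested in it. Of the 11 tested members with shorter coding lengths, 2 rose, both of 3000 to 4499 bases, and with summed reads 0 of 12 did.

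The 4 with the smallest p were Ank2, Sptbn1, Pclo and Dync1h1, which encode an ankyrin, a spectrin, a presynaptic scaffold and the dynein heavy chain. Sptbn1 had 6758, 4760 and 8638 CPM in the SMN libraries, against 906 and 900.5 CPM in polysomes, with 8745 CPM in IgG. Its log2 fold change was 3.34 ± 0.36 (SE; edgeR adjusted p 1.9e-05), and that of Ank2 was 2.87 ± 0.28 (8.8e-06). Pclo rose by 1.82 ± 0.25 (1.7e-04) and Dync1h1 by 1.84 ± 0.26 (2.5e-04), both by the edgeR test with adjusted p in parentheses. Against IgG the same 4 had log2 fold changes of -0.08, -0.45, -0.11 and 0.19 in that order, none called.

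**Figure D5:**
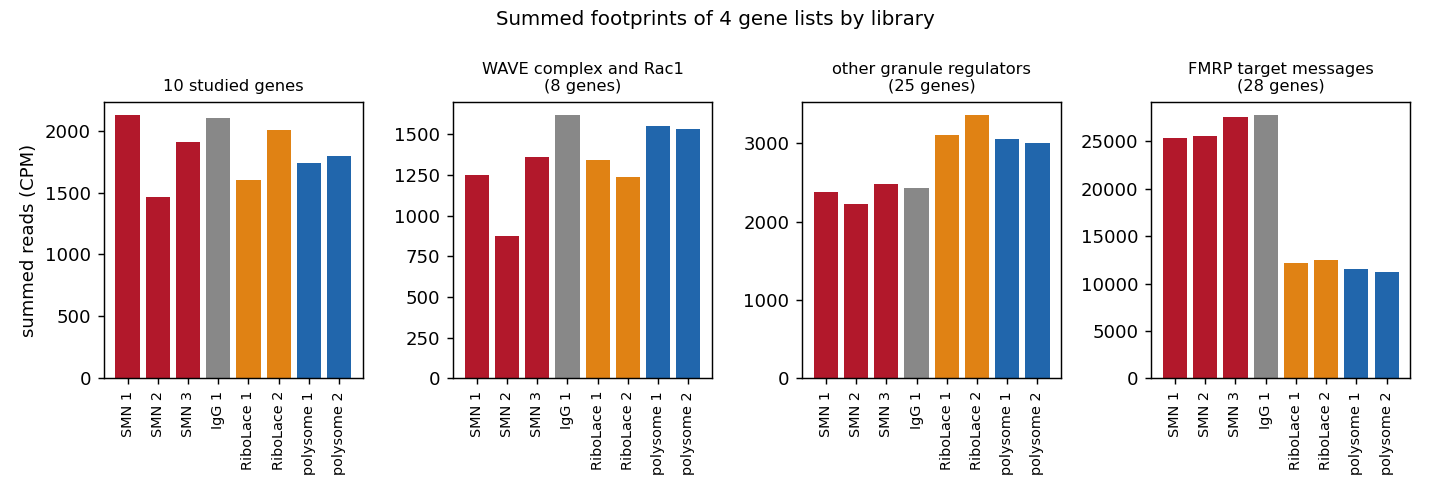
Summed reads in CPM (y axis, from 0) of the 10 studied genes and of 3 related gene lists in each library (x axis; red SMN, grey IgG, orange RiboLace, blue polysomes). FMRP target messages stand at 25370 to 27792 CPM in the immunoprecipitates and at 11264 to 12523 CPM in the SMA fractions, while the 10 studied genes stay between 1466 and 2126 CPM.

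Of the 10 genes, 5 had at least 10 reads in every library, which allowed the genes with the most similar course over the 8 libraries to be named among 1681 genes. Pearson's r of log2 CPM is given as a description, since the libraries form few groups that share method, depth and treatment of isoforms. Cyfip2 was closest to Copa (a coatomer subunit, r = 0.991), Mllt4 (0.978) and Strn4 (0.973). Caprin1 was closest to Psmd12 (a proteasome subunit, 0.982), Pak1 (a kinase downstream of Rac1, 0.947) and Fth1 (ferritin heavy chain, 0.943). Fxr1 was closest to Hsp90aa1 (a chaperone, 0.963), Dgke (0.945) and Dhx9 (an RNA helicase, 0.931). For Stau1, Uba2 (0.955) and Nsun2 (an RNA methyltransferase, 0.936) were among the closest, and Pum2 was closest to Cask (a synaptic scaffold, 0.939), Klhl13 (0.932) and Ddx39b (an RNA helicase, 0.908).

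The share of a gene's reads that fell on the transcript used differed widely. It was 100% for Igf2bp3, which has 1 listed transcript, 66.0% for Fxr2-006, the one coding transcript of Fxr2, and 26.8%, 23.6% and 19.7% for Cyfip2-202, Caprin1-001 and Cyfip1-001. It was lowest for Fxr1-001 (17.0%), Stau1-001 (15.5%), Fmr1-005 (13.2%) and Pum2-201 (11.8%), whose values for 1 transcript per gene rest on few reads. In the GRCm38.p6 annotation of RefSeq, Cyfip1 lies at chr7:55842022-55932633 and Cyfip2 at chr11:46193849-46312859, on different chromosomes, as are Fmr1 (chrX:68678536-68717963), Fxr1 (chr3:34020058-34069980) and Fxr2 (chr11:69632971-69653297).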

How the data were processed

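The authors deposited raw read counts for each Ensembl transcript, beside the lengths of its parts, per the file headers. The submitters' processing notes name Trimmomatic 0.36, Bowtie2 2.2.6, SAMtools and the GRCm38.p4 build. The sources used here do not give the handling of reads that match more than 1 transcript.

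A gene's values were taken from the coding transcript whose library-scaled sum over the 8 libraries was highest, and in parallel by reads summed over its transcripts. Counts were tested with edgeR 4.0.16 in R 4.3.3 (two-sided quasi-likelihood test, robust, TMM scaling, minimum count 10) on the compared groups alone, over all coding genes that passed, and a call means an adjusted p (Benjamini-Hochberg) under 0.05. CPM printed per library are relative to reads on coding genes. The 10 members and the 3 gene lists were chosen with earlier results of these data known. From each list up to 4 called genes, or else the 2 with the smallest p, are named. For genes with at least 10 reads in every library, the 3 genes with the highest Pearson r are named, except 1 that is not reported here.

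Alternatives were DESeq2 1.42.0, limma-voom (limma 3.58.1), scaling by library totals, omitting the filter, raising it to 50, fitting the 8 libraries jointly, other transcript choices, the replicate number as a block and each library left out. The scripts were tested on simulated data. Replicate numbers are shared between groups, but the labels state no shared animal or day. Shares and permutation tests used scipy 1.17.1, and figures matplotlib 3.10.9. Protein sequences were not used here.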

Additional observations from a re-analysis of the deposited data

How the results depend on the processing

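All values in this paragraph are counts of calls, or log2 fold changes where stated, under 1 change at a time, except that ranges on leaving out a library also cover summed reads with a library left out; that pair of changes, the longest coding transcript and the changed gene value for shares were chosen after seeing the data. For SMN against IgG (1 gene called), DESeq2, a minimum count of 50 and summed reads called 0 genes, 1 fit of all libraries called 2, and leaving out an SMN library gave 0 to 5; none of the 10 studied genes was called in any. For RiboLace against polysomes (242 genes), limma-voom called 0, all libraries in 1 fit 70, the replicate block 58, and leaving out a library 33 to 183 for 1 transcript per gene and 45 to 479 for summed reads; of the studied genes (0), a minimum count of 50 called 1 (Stau1), summed reads 2, and leaving out a library 0 to 1. For SMN against polysomes (1781 genes), a minimum count of 50 called 360, summed reads 894, the replicate block 371, and leaving out a library 141 to 3348 for 1 transcript per gene and 26 to 3435 for summed reads; of the studied genes (2), library totals, summed reads and the replicate block called 1 (Cyfip1), a minimum count of 50 called 0 with Cyfip1 untested, and leaving out a library 0 to 4 for 1 transcript per gene and 0 to 5 for summed reads. With the block Cyfip2 had a log2 fold change of 0.73 (edgeR adjusted p 0.286). The block rests on 2 pairs of numbers with no shared animal stated; deviations of same-numbered libraries correlated at 0.10 for RiboLace and polysomes and at -0.11 and -0.08 for SMN and polysomes, and no block could be fitted against the 1 IgG library. No called value changed sign; over its alternatives the edgeR, DESeq2 or limma adjusted p ranged from 7.7e-06 to 0.673 for Cyfip1 and from 8.1e-08 to 0.757 for Cyfip2 (SMN against polysomes), and from 9.4e-04 to 0.998 for Fxr1 and from 0.0341 to 0.999 for Stau1 (RiboLace against polysomes). Among uncalled values against IgG, summed reads turned Fxr1 to 0.040 and Pum2 to 0.51, and the transcript by raw read sum turned Caprin1 to -0.084 and Pum2 to 0.060; leave-one-out values ranged from -0.51 to 0.25 for Fxr1 and from -0.49 to 0.83 for Pum2. In RiboLace against polysomes, no filter turned Cyfip1 to -0.059 and Cyfip2 to -0.088, a minimum count of 50 turned Caprin1 to 0.076, summed reads turned Cyfip2 to -0.15, and the transcript by raw read sum turned Cyfip2 to -0.18 and Pum2 to -0.33; leave-one-out values ranged from -0.79 to 1.08 for Fmr1, -1.13 to 0.90 for Cyfip1, -0.45 to 0.30 for Cyfip2 and -0.20 to 0.69 for Pum2. The cause of these changes was not tested. Depth limits RiboLace most, where Fmr1, Fxr2 and Cyfip1 rest on 5 to 18 reads per library.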

Other observations

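Smn1, the gene whose product was immunoprecipitated, had 155, 109 and 127 CPM in the SMN libraries, against 31.1 CPM in IgG. The log2 fold change of summed reads was 2.04 ± 0.68 (SE), not called (edgeR adjusted p 0.692), nor was that of the most covered transcript (0.921). It had 79.0 and 34.8 CPM in RiboLace, on 8 and 3 reads, against 42.4 and 43.1 CPM in polysomes. Smn1 reads were thus present in libraries labelled Smn-/-, and they do not check the genotype, since the table does not say which part of the gene they cover.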
